A study of Rattus norvegicus with 6 samples.

Results

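A set of 7 genes of endothelial membranes was followed in liver endothelial cells of cirrhotic and control rats: the caveola genes Cav1, Cav2 and Cavin1, the diaphragm gene Plvap, the water channel gene Aqp1, and Ehd3 and Stom, which encode proteins bound to the inner face of membranes. The members were named by symbol, and every probe set with 1 of these symbols as its only one in the platform annotation was taken, dim ones included. Stom was chosen by its measured signal, for its strong fall in these same arrays, so its difference between the groups is given as a description with no test. The annotation gave 8 probe sets for 6 of the 7 genes, out of 15866 probe sets naming 10411 genes, with 2 probe sets each for Cav1 and Aqp1. Cavin1 had no probe set under its own symbol and was not analysed here. All 8 probe sets passed the filter on dim signals.

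RNA came from liver endothelial cells of cirrhotic Wistar rats (3 arrays) and control Wistar rats (3 arrays), hybridised to Affymetrix Rat Expression 230A arrays. Per the labels, cells were freed with collagenase, separated by density and captured on antibody-coated beads. The labels call the animals of the cirrhosis protocol adult males. How cirrhosis was induced, the age and sex of the controls, the antibody's target and the number of rats per array were not stated. The p-values therefore reflect spread among these arrays alone, which may be technical.

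Caveolae are small flask-shaped pits of the plasma membrane, abundant in endothelium, adipocytes and smooth muscle. Caveolins form their membrane-embedded coat, cavins the outer coat, and proteins of the EHD and pacsin families act at the neck. Plvap builds the diaphragms that close fenestrae and caveolae, and the fenestrae of healthy adult sinusoidal endothelium mostly lack such diaphragms. In capillarisation, which accompanies fibrosis, sinusoidal endothelium loses fenestrae and comes to resemble the wall of a continuous capillary.

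The sequences just upstream of 4 starts are shown for the members most of the results are about: Aqp1 and Ehd3, which fell, and Cav1 and Plvap, which did not pass the test with all 6 arrays. Whether these members differed from each other was not tested. Each run holds the 250 bases before the start in RefSeq's table for GRCr8, 5′ to 3′ along the gene's strand, and capitals mark 3 motifs searched on both strands: TATAAA, the TATA box core, GATAA, a core bound by GATA factors, and GGGCGG, the GC box bound by Sp1.
Aqp1 (chr4:85812534-85812783, plus strand): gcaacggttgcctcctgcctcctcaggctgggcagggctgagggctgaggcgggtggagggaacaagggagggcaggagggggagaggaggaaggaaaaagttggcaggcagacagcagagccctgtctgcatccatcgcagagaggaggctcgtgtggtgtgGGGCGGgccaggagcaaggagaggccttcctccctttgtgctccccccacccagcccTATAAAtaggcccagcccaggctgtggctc
Ehd3 (chr6:27417446-27417695, minus strand): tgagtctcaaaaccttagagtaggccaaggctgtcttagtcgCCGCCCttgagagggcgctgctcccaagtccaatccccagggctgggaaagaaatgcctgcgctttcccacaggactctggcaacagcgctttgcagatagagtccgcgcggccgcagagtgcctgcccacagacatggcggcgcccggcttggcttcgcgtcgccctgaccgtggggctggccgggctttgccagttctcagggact
Cav1 (chr4:46606288-46606537, plus strand): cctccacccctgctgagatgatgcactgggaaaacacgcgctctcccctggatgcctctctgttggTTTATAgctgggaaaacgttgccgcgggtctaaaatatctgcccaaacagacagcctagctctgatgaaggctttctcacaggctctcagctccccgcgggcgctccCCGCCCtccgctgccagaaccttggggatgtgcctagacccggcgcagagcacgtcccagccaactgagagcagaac
Plvap (chr16:18231280-18231529, minus strand): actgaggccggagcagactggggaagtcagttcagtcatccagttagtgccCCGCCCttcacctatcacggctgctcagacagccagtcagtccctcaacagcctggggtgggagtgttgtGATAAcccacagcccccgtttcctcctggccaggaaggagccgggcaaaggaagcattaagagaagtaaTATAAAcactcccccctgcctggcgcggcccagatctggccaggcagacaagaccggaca
The Aqp1 window held TATAAA from 30 to 25 bases before the start and a GC box from 87 to 82, and the Ehd3 window held a GC box and no TATAAA. The Cav1 window held TATAAA on the opposite strand and 1 GC box, and a second Cav1 window in the table (chr4:46607722-46607971, not printed) held 0 of the 3 motifs. The Plvap window held all 3 motifs, TATAAA lying 60 to 55 bases before the start and GATAA 129 to 125 before it. Of 33469 windows of this length in the table, 12.9% held TATAAA, 23.5% GATAA and 30.5% GGGCGG, without overlap among the matches shown. Windows were found for 6 of the 7 members. A match is a run of letters, not a measured binding site.

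The cells carried endothelial transcripts in both groups. Pecam1, an adhesion molecule of endothelial junctions, read 906.6, 666.3 and 727.9 on the cirrhotic arrays, against 1938.9, 1657.5 and 1745.4 on the control arrays. Trimmed mean signals lay between 399.2 and 399.6 on the 6 arrays, and no pair of arrays shared more than 47 identical values. In limma's moderated test, 25.4% of the 9519 probe sets passed (adjusted p under 0.05), with 12.3% up and 13.2% down in cirrhotic cells, and the median log2 difference over all of them was -0.02. The signals of the groups did not overlap for 44.9% of the probe sets, all 3 cirrhotic arrays being lower for 24.1%. Differences are on the log2(signal + 16) scale, cirrhotic minus control, which understates changes of dim genes.

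Genes of the vessel wall and of other cells moved between the groups. The 14 measured pan-endothelial genes had a median difference of -0.98 and 13 fell, and all 8 measured sinusoidal endothelial genes fell, with a median of -1.20. The summed signal of 20 stellate, myofibroblast and smooth muscle genes was 25893 to 41413 on the cirrhotic arrays and 7178 to 8274 on the control arrays. For 12 bile duct genes the sums were 5688 to 15231 in cirrhotic and 1076 to 2004 in control cells, with the lowest cirrhotic sum on array 3. Of these lists, 13 of 16 tested stellate and muscle genes and 8 of 10 tested bile duct genes rose and 0 fell, against 12.3% of all probe sets called higher. Hepatocyte genes were bright in both groups, with Alb averaging 12728 in cirrhotic and 11075 in control cells. Of 18 tested hepatocyte genes 8 rose and 0 fell, and with 1 array left out 2 to 9 were called higher. Of 7 tested mesothelial and lymphatic endothelial genes 3 rose and 1 fell, against 12.3% higher and 13.2% lower among all probe sets. Mmrn1 rose by 3.64, Pdpn by 1.77 and Prox1 by 1.47, and Flt4 fell by 1.22. No marker of these lists read 0, but some were too dim to test. Among stellate and muscle genes, Acta2 averaged 62.3 in cirrhotic and 17.6 in control cells, and Myh11 168 and 76.0. Des averaged 113 in cirrhotic and 96.2 in control cells, and Cnn1 40.7 and 39.6. Of the dim bile duct genes, Krt7 averaged 51.6 in cirrhotic and 48.4 in control cells, and Sctr 230 and 12.5. In such mixed RNA, fewer cells of a type and less RNA per cell cannot be told apart.

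Aqp1 fell, Ehd3 fell and the caveolin genes did not pass the test. Apart from Stom, 3 of 7 member probe sets were called, all of them lower in cirrhotic cells, in a table where 13.2% of probe sets were called lower. The same 3 were the ones whose groups did not overlap, with all cirrhotic arrays lower, as for 24.1% of all probe sets. The members were chosen with results of these arrays known, so these counts describe them and do not set them apart from other genes.

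**Figure D1:**
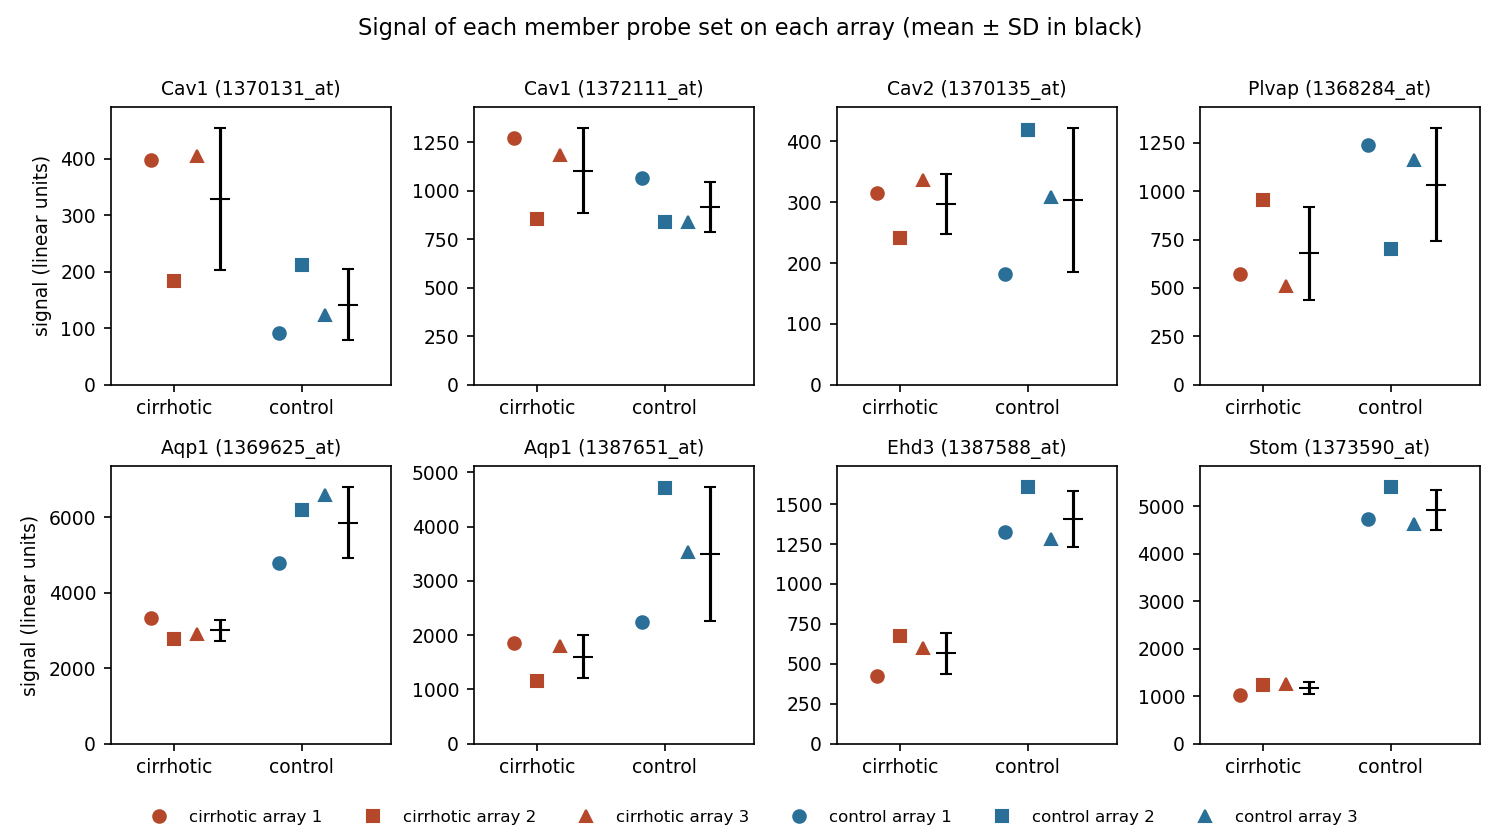
Signal in linear units of each of the 8 member probe sets on each array, cirrhotic left and control right, with 1 marker shape per array number and the mean ± SD (n = 3) in black. The groups are apart for both Aqp1 probe sets, Ehd3 and Stom, and overlap for Cav1, Cav2 and Plvap.

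Cav1 encodes caveolin 1, without which endothelial caveolae do not form in mice. Its probe set 1370131_at read 397.3, 184.1 and 405.5 on cirrhotic arrays 1 to 3, against 90.5, 211.9 and 122.8 on control arrays 1 to 3. Cirrhotic arrays 1 and 3 lay above every control array, and cirrhotic array 2 lay below control array 2, so the groups overlapped. The difference was 1.12 (SE 0.36, 95% interval 0.28 to 1.96, n = 3 per group) with an adjusted p = 0.0564 by limma and Benjamini-Hochberg, which did not pass. It passed without cirrhotic array 2 (1.48, adjusted p = 0.0147) or without control array 2 (1.43, adjusted p = 0.0371). Without any other single array it did not pass, with limma adjusted p from 0.121 to 0.178.

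The brighter Cav1 probe set, 1372111_at, read 1273.3, 854.8 and 1183.5 on the cirrhotic arrays and 1063.7, 839.9 and 839.5 on the control arrays. Cirrhotic array 2 again lay lowest of its group, inside the range of the control arrays. The difference was 0.26 (SE 0.18, 95% interval -0.17 to 0.68, limma adjusted p = 0.340), and it was 0.14 without cirrhotic array 1 and 0.43 without cirrhotic array 2. Within an array, the dim probe set minus the bright one on the log2 scale was -1.64, -2.12 and -1.51 in cirrhotic cells and -3.34, -1.91 and -2.62 in control cells. A two-sided exact permutation test of that gap between the groups gave p = 0.2, where 3 against 3 arrays allow no p under 0.1. Both Cav1 probe sets leaned upward, and neither passed with all 6 arrays.

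Cav2, the partner of caveolin 1 in hetero-oligomers, lies next to Cav1 in the GRCr8 gene table with no gene between them. Its probe set 1370135_at read 315.0, 240.5 and 335.8 in cirrhotic cells, against 182.3, 419.5 and 309.3 in control cells. The control arrays ran from below to above all cirrhotic arrays. The difference was 0.03 (SE 0.28, 95% interval -0.62 to 0.68, limma adjusted p = 0.953). Without control array 1 the difference was -0.28 (adjusted p = 0.403), so its sign rested on single arrays.

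The other measured genes of the caveola coat and neck gave no call. Of 11 listed genes 8 had a probe set and 6 were bright enough to test, and 0 of these 6 were called in either direction, against 25.4% of all probe sets. At an unadjusted p under 0.05 limma also called 0 of the 6. Their median difference was 0.03. Cavin3, a cavin of the outer coat, averaged 1711 ± 175 in cirrhotic and 1575 ± 119 in control cells (SD, n = 3 each), with a difference of 0.12 (95% interval -0.18 to 0.41). Pacsin2, a membrane-bending protein of the caveolar neck, had a difference of -0.21 (95% interval -0.60 to 0.17). Ehd1 and Ehd4, relatives of Ehd3, had differences of 0.16 (95% interval -0.33 to 0.66) and -0.05 (95% interval -0.53 to 0.43). Dnm2, a dynamin that cuts vesicles from the membrane, had a difference of -0.89 (SE 0.52, limma adjusted p = 0.241), with signals of 277.1, 365.7 and 67.1 in cirrhotic and 294.6, 370.1 and 473.7 in control cells. Its cirrhotic array 3 stood apart from the other arrays. Cav3, the muscle caveolin, read between 4.3 and 8.7 in cirrhotic and between 4.6 and 7.3 in control cells, under the 21.7 to 49.9 of the brightest bacterial control probe set.

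**Figure D2:**
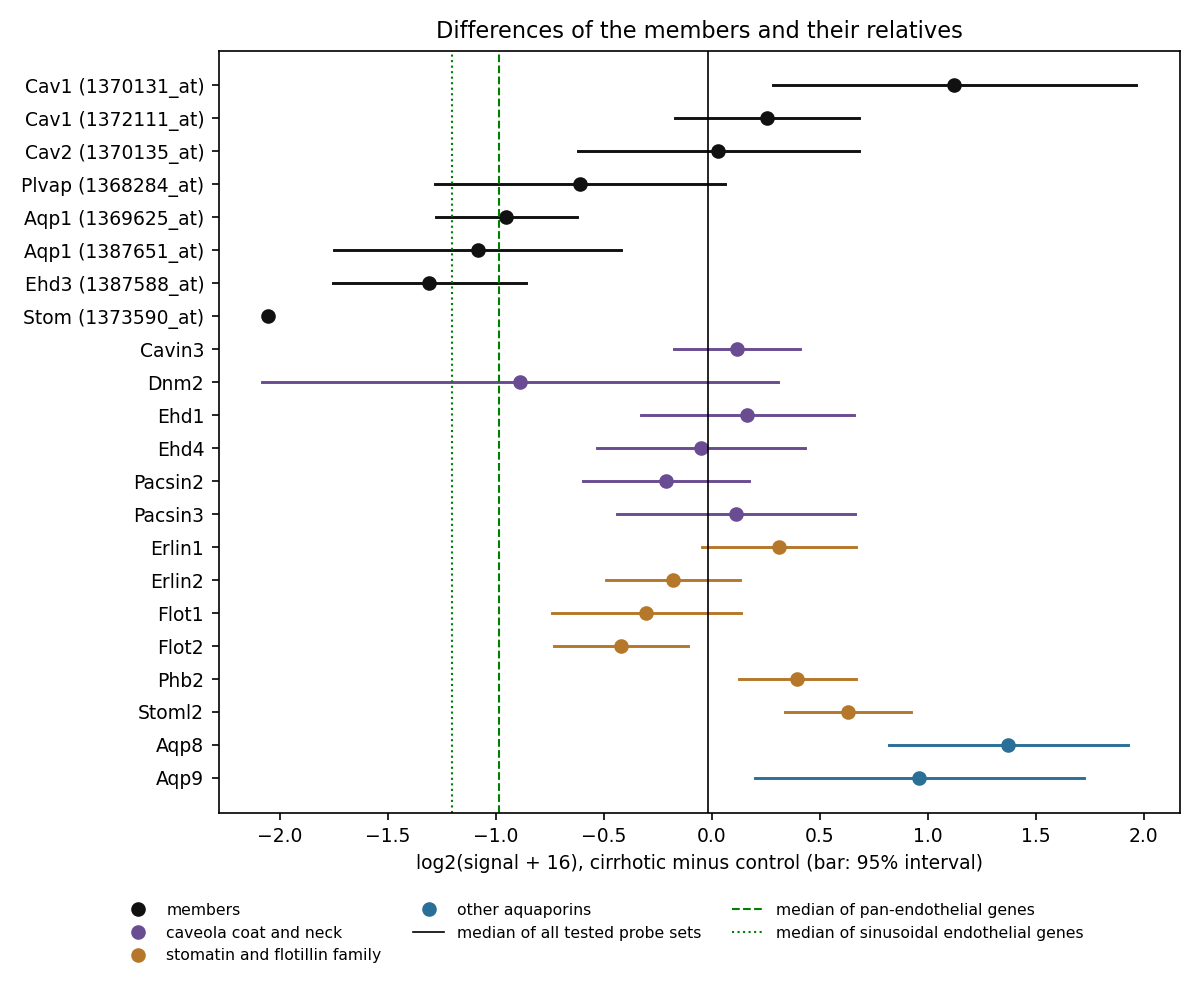
Difference in log2(signal + 16), cirrhotic minus control, for each member probe set and for the tested genes of the caveola, stomatin and aquaporin lists, with 95% intervals from limma (none drawn for Stom). Vertical lines mark the medians of all tested probe sets (-0.02), of pan-endothelial genes (-0.98) and of sinusoidal endothelial genes (-1.20), and Cav1, Cav2 and Cavin3 lie near or above the first, Aqp1 and Ehd3 near the other two.

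Plvap, the diaphragm protein, read 570.0, 955.2 and 510.0 in cirrhotic cells, against 1240.9, 698.8 and 1164.1 in control cells. Cirrhotic arrays 1 and 3 were below every control array, while cirrhotic array 2 exceeded control array 2. The difference was -0.61 (SE 0.29, 95% interval -1.28 to 0.06, limma adjusted p = 0.158), within the spread of the arrays. Without cirrhotic array 2 it was -0.88 (adjusted p = 0.0437) and passed. With each array left out in turn it ranged from -0.88 to -0.43, with limma adjusted p up to 0.369. The signals of Plvap and of the dim Cav1 probe set ran in opposite order among the arrays of each group: array 2 was the highest for Plvap and the lowest for Cav1 in cirrhotic cells, and the lowest for Plvap and the highest for Cav1 in control cells.

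**Figure D3:**
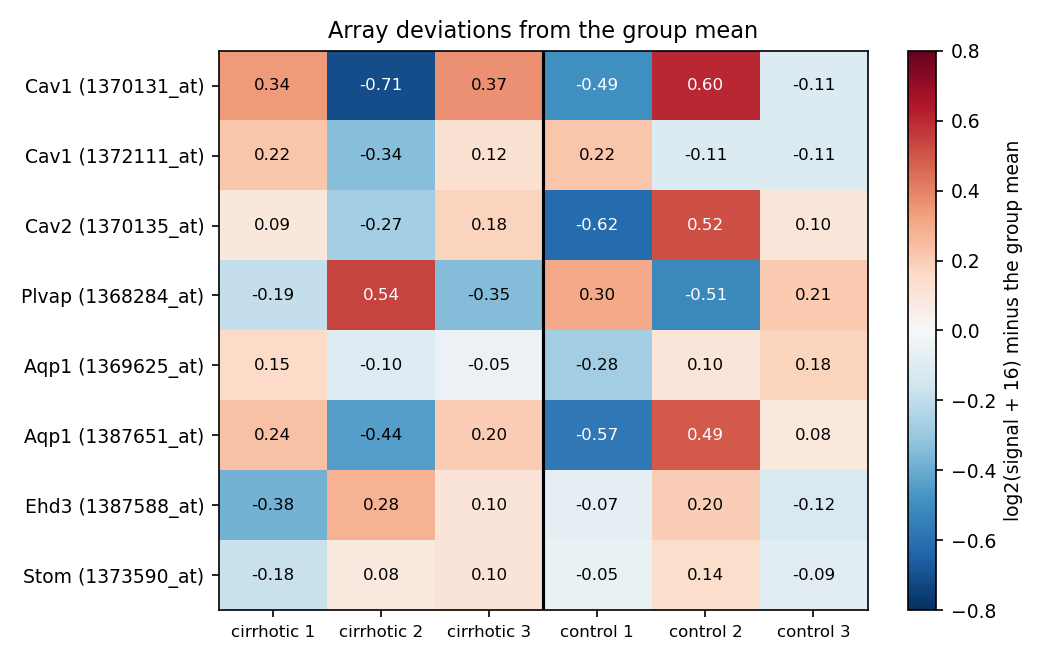
Deviation of each array's log2(signal + 16) from its group mean for the 8 member probe sets, cirrhotic arrays left of the line and control arrays right. Cirrhotic array 2 lies at -0.71 for Cav1 (1370131_at) and 0.54 for Plvap, and control array 2 at 0.60 and -0.51.

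Among the 3 control arrays, the 3′ over 5′ ratios of control probe sets ran in the order of Plvap. The hexokinase control probe sets give a 3′ over 5′ ratio that climbs as RNA degrades. It was 2.47, 2.57 and 2.91 on cirrhotic arrays 1 to 3 and 7.42, 1.81 and 3.54 on control arrays 1 to 3. Control array 1, with the highest hexokinase ratio, had the lowest control signal of Cav1 (1370131_at), Cav2 and both Aqp1 probe sets. It had the highest control signal of Plvap and of the other Cav1 probe set, 1372111_at. Control array 2, with the lowest hexokinase ratio, had the highest control signal of Cav1 (1370131_at), Cav2 and Aqp1 (1387651_at) and the lowest of Plvap. Cirrhotic array 2, low for both Cav1 probe sets, also had the lowest summed signal of stellate and muscle genes in its group. Of the 20 genes 11 were lowest on array 2, 7 on array 3 and 2 on array 1. The same count was not made over all probe sets, so it does not set these genes apart. The part of RNA quality and of stellate cells in the values of Cav1, Cav2 and Plvap was not tested.

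Aqp1, the constitutive water pore of endothelium, red cells and bile duct cells, fell on both of its probe sets. Probe set 1369625_at read 3328.4, 2785.7 and 2895.6 in cirrhotic cells, against 4787.4, 6205.2 and 6583.0 in control cells, and 1387651_at read 1850.3, 1153.5 and 1807.1 in cirrhotic cells, against 2241.1, 4708.8 and 3537.7 in control cells. Every cirrhotic signal lay under every control signal on each probe set. The differences were -0.95 (SE 0.14, limma adjusted p = 0.00319) and -1.08 (SE 0.29, limma adjusted p = 0.0288). The first call held with each array left out in turn (adjusted p from 0.00395 to 0.0183). The second ended without cirrhotic array 1 or 2 or control array 2 or 3 (adjusted p from 0.0588 to 0.0964), and the largest signal ratio among its control arrays was 2.10. Bile duct and red cells also make Aqp1. Bile duct markers were higher in cirrhotic cells, as given above. The 11 erythroid genes summed to 3191 to 9287 in cirrhotic and 2028 to 2976 in control cells. Without Hbb the other 10 summed to 2066, 2785 and 1568 in cirrhotic and 1400, 1699 and 1741 in control cells, which overlapped. The brightest of these 10 were Tfrc, which rose, and Epb41, which fell. Of those too dim to test, Alas2 read 316.9, 354.9 and 100.7 in cirrhotic and 51.3, 70.6 and 84.7 in control cells. Rhag averaged 33.3 in cirrhotic and 12.3 in control cells. Both were higher on every cirrhotic array, as were 20.8% of all tested probe sets. For Ahsp, Ank1, Gata1, Kel, Slc4a1 and Sptb the groups overlapped. The part of bile duct and red cells in the values of Aqp1 was not tested.

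Other aquaporins were mostly dim. Of 10 listed genes 9 had a probe set and 2 were bright enough to test. Aqp8, a water channel of hepatocytes and other epithelia, rose, with signals of 432.1, 352.4 and 610.4 in cirrhotic cells against 215.4, 156.8 and 132.7 in control cells (1.37, SE 0.24, limma adjusted p = 0.00578). Aqp9, which carries glycerol and water into hepatocytes, read 264.8, 142.4 and 377.8 in cirrhotic and 137.4, 131.0 and 89.2 in control cells and did not pass (0.96, SE 0.33, limma adjusted p = 0.0666). Both had their highest signal on cirrhotic array 3, the array with the largest summed signal of 18 hepatocyte genes, which summed to 72097, 53838.5 and 102409 on cirrhotic arrays 1 to 3 and to 41975 to 61412 on the control arrays. The part of hepatocyte RNA in these differences was not tested.

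Ehd3, an ATPase that shapes recycling endosomes and whose protein marks glomerular endothelium in mouse kidney, fell. It read 423.8, 677.2 and 597.5 in cirrhotic cells, against 1327.6, 1607.5 and 1282.1 in control cells. All 3 cirrhotic signals lay well under the lowest control signal. The difference was -1.31 (SE 0.19, 95% interval -1.75 to -0.86, limma adjusted p = 0.00307), and it stayed between -1.45 and -1.12 with adjusted p-values from 0.00304 to 0.0148 when arrays were left out in turn. The 2 other tested genes of its family, Ehd1 and Ehd4, gave no call, and whether Ehd3 differed from them was not tested. RefSeq's gene table also lists Ehd2 as an older name of this rat gene, and no separate Ehd2 probe set was found.

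Stom encodes stomatin, an integral protein of the red cell membrane and of lipid rafts that is present in many other cells. It read 1033.9, 1238.2 and 1259.3 in cirrhotic cells, against 4745.2, 5412.1 and 4632.1 in control cells. All cirrhotic signals were far below all control signals, and the spread within each group was small, with a ratio of highest to lowest signal of 1.22 in cirrhotic and 1.17 in control cells. The difference was -2.05 (SE 0.13), and the control mean was 4.19 times the cirrhotic mean. Of the 9519 tested probe sets it stood 21st from the lowest difference, which is the pattern it was chosen for. The red cell globin Hbb ran the other way, with 6780.3, 6502.0 and 1623.0 in cirrhotic and 627.9, 1276.8 and 540.1 in control cells. Slc4a1, the red cell anion exchanger, stayed dim on both of its probe sets. Its means were 110 and 35.4 in cirrhotic and 130 and 54.9 in control cells. Alas2 and Rhag, also too dim to test, were higher on every cirrhotic array, as given above. Of the 3 tested erythroid genes Hbb and Tfrc rose and 1, Epb41, fell, against 12.3% higher and 13.2% lower among all probe sets. The probe sets of Epb41 had differences of -0.65 (limma adjusted p = 0.0491) and -0.76 (limma adjusted p = 0.00637). The part of red cells in the values of Stom was not tested.

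The relatives of stomatin with the same core domain had differences between -0.42 for Flot2 and 0.63 for Stoml2. Of 10 listed genes 6 were tested, 2 were called higher and 0 lower, with a median of 0.07, against 12.3% higher and 13.2% lower among all probe sets. Stoml2, a mitochondrial stomatin-like protein, rose (0.63, SE 0.13, limma adjusted p = 0.00979), with signals of 327.9, 331.4 and 341.4 in cirrhotic and 228.8, 198.9 and 202.2 in control cells. Phb2, a prohibitin of the inner mitochondrial membrane, rose by 0.40 (SE 0.12, limma adjusted p = 0.0421). Leaving out any 1 of the 6 arrays reduced the 2 calls to 1. The raft scaffolds Flot1 and Flot2 had differences of -0.30 (95% interval -0.74 to 0.13, limma adjusted p = 0.271) and -0.42 (95% interval -0.73 to -0.11, limma adjusted p = 0.0536), which did not pass. For Flot2 all 3 cirrhotic arrays were lower.

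Because 13 of the 14 pan-endothelial genes fell, the members were also set against these genes. Each array was centred on the mean log2 value of the 14 pan-endothelial genes, which differed by -1.01 between the groups. On this scale nearly every probe set of the array moved up, with a median difference of 0.99, and 86.4% of the 9519 were called higher and 1.05% lower. Aqp1 had differences of 0.06 (95% interval -0.25 to 0.37, limma adjusted p = 0.699) and -0.08 (95% interval -0.66 to 0.50, limma adjusted p = 0.784), and Ehd3 one of -0.30 (95% interval -0.80 to 0.20, limma adjusted p = 0.219). Relative to the mean of the pan-endothelial genes, neither gene passed the test, and the intervals above give the differences these arrays leave possible. Stom, chosen for its fall on these same arrays, had a difference of -1.05 (SE 0.15) on this scale, given without a test.

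Cav1 and Cav2 were higher than the pan-endothelial mean, as most of the array was. Relative to the pan-endothelial genes Cav1 was higher by 2.13 (SE 0.33, limma adjusted p = 0.000413) on the dim and 1.26 (SE 0.18, limma adjusted p = 0.000313) on the bright probe set, and Cav2 by 1.04 (SE 0.26, limma adjusted p = 0.00470), where 86.4% of all probe sets were called higher too. Plvap had a difference of 0.40 (95% interval -0.33 to 1.13, limma adjusted p = 0.257). Of the 6 tested genes of the caveola coat and neck, 5 were called higher on this scale. Stellate cells, smooth muscle and bile duct cells also make caveolins, and their marker sums were higher in cirrhotic cells, as given above; their part in the values of Cav1 and Cav2 was not tested.

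**Figure D4:**
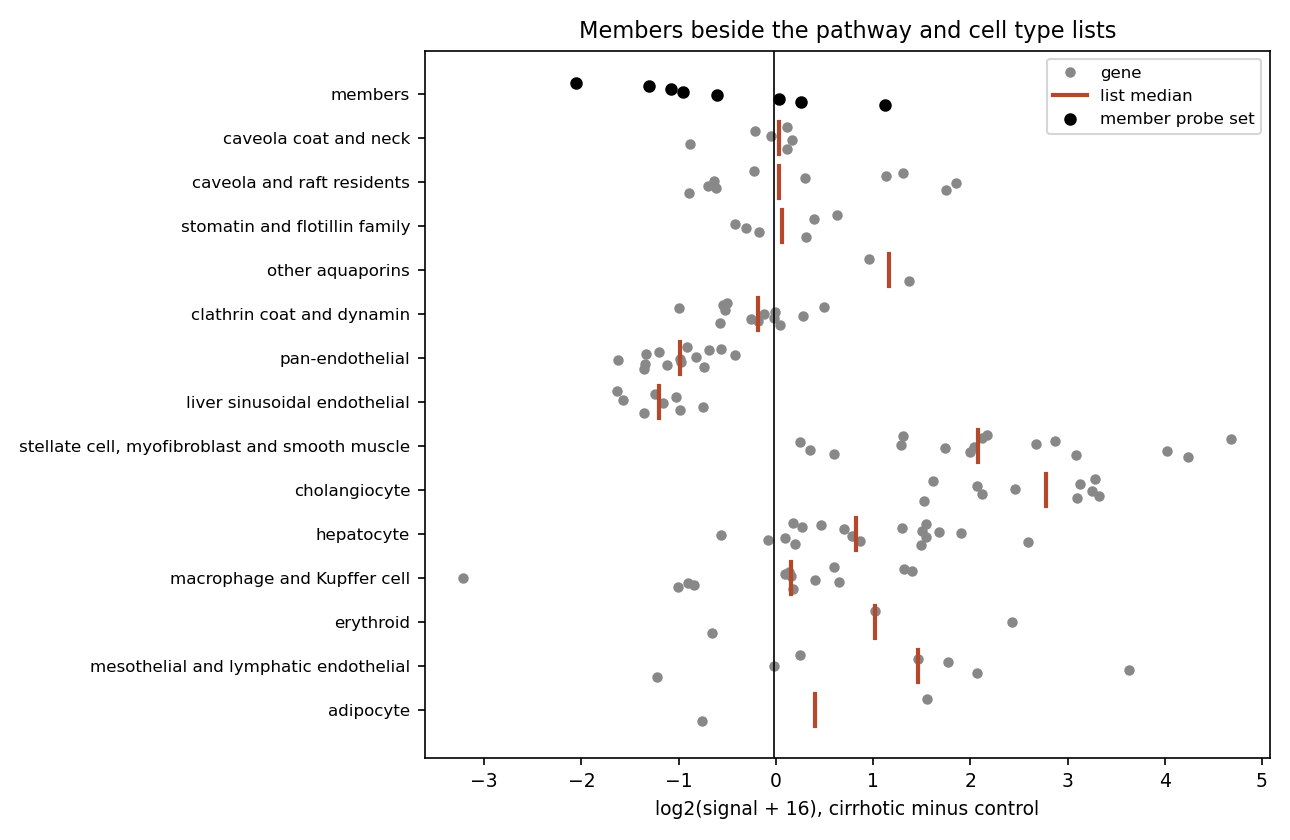
Difference in log2(signal + 16), cirrhotic minus control, of the 8 member probe sets (black) and of the tested genes of each pathway and cell type list (grey, 1 probe set per gene), with list medians in red and the median of all tested probe sets as a black line. Members spread from -2.05 for Stom to 1.12 for Cav1, with list medians of -0.98 for pan-endothelial, -1.20 for sinusoidal, 2.08 for stellate and muscle and 2.78 for bile duct genes.

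The genes whose log2 signals tracked each member most closely over the 6 arrays were listed as a description. For Stom they were Gpr155, Sft2d1 and Nt5c3a (Pearson's r of 0.998, 0.997 and 0.997), which differed by -1.41, -1.26 and -1.11 between the groups. For Ehd3 they were Pde4dip, Pld1 and Pisd (0.995 each), and for Aqp1 (1369625_at) Mertk, Lpcat3 and Mast2 (0.993, 0.990 and 0.989). For Plvap they were Map7d1, Golga4 and Dpy19l1 (0.995, 0.989 and 0.989), for the bright Cav1 probe set Tbcd, Mettl9 and Ndufb7 (0.987, 0.985 and 0.976), and for Cav2 Csnk1d, Nsf and Eif4g1 (0.982, 0.980 and 0.979). The 6 points share the difference between the groups and come from the same arrays, and each gene was picked as the closest among all tested genes.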

How the data were processed

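Values are intensity on a linear scale as deposited by the authors, 1 signal per probe set and array; the summary software is not given in the sources used here, and arrays had nearly equal trimmed means, so the deposited scaling was kept. It shows each transcript relative to the rest of its array. Depth does not apply to arrays, whose number limits the precision.

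Signals became log2(signal + 16), 16 being the 10th percentile of all values. Dropping 57 control probe sets and the dimmest 40% by mean kept 9519. The test was a two-sided moderated comparison (lmFit, eBayes with trend; R 4.3.3, limma 3.58.1) with Benjamini-Hochberg adjustment over all 9519 at 0.05. Single values were compared by exact permutation. Symbols came from the platform annotation: 12783 probe sets had 1 symbol, 312 several and 2771 none, and the gene IDs of 12748 were found in the GRCr8 table with 0 symbols changed. Lists used the brightest probe set per gene. Groups and numbers came from titles, and the control array without a number was called 1.

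Members and lists were chosen with earlier results of these data known. Named were all members, genes of the caveola, stomatin and aquaporin lists, up to 4 genes with the smallest p of other lists, and the 3 genes most like each member. Hbb, Slc4a1, Acta2, Krt7 and Pecam1 were named after their values were seen, as defining markers. Epb41, Alb, Cnn1, Des, Myh11, Sctr and the erythroid genes too dim to test were also named after their values were seen. Alternatives covered scaling, centring, pseudocount, filter, variance model, array weights, shared-sequence probe sets, a replicate block and leaving out each array. The fit was tested on simulated data.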

Additional observations from a re-analysis of the deposited data

How the results depend on the processing

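Over 17 alternatives, 97 of 118 differences of the members other than Stom kept their direction and side of the threshold, and 421 of 493 counts of calls stayed within 1.5 times of the reported count. Arrays are few and dim genes lie close to background, which limits what can be called.

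The largest shifts came from centring on pan-endothelial genes, which raised the median of all probe sets to 0.99 by construction and called 8327 of 9519, 8227 higher and 100 lower, against 1167 and 1254. Under it Aqp1 gave 0.057 and -0.076, Ehd3 -0.30, Stom -1.05, Plvap 0.40, Cav1 2.13 and 1.26 and Cav2 1.04. Genes called higher were then 5 for the caveola coat, 12 for clathrin, 2 for aquaporins and 6 for the stomatin family, and genes called lower 0 for raft residents and 0 for clathrin.

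Array weights called 3772 probe sets and passed Cav1 (1370131_at, 1.45) and Plvap (-0.80); they called 1 clathrin gene and 2 aquaporins higher and 1 stomatin family gene lower. With quantile normalization Cav2 was -0.010. Median centring called 1 stomatin family gene lower. With the 60% filter, raft residents had 2, aquaporins 0 and the stomatin family 1 gene higher and 1 lower, and Cav1 (1370131_at) was not tested.

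The replicate block used the numbers 2 and 3, shared by both groups' titles. It gave each array numbered 1 a term of its own, so only the arrays numbered 2 and 3 informed the difference. The block called 904 probe sets, 499 higher and 405 lower, and gave -0.33 for Cav2. It called 1 raft and 1 clathrin gene lower and 0 stomatin family genes higher. Deviations of same-numbered arrays correlated at -0.01 and -0.16, so the numbers were not taken as pairs.

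With 1 array left out, all probe sets gave 1341 calls (without control array 3), 1366 (without cirrhotic array 1) and up to 2472. Cav2 ranged from -0.28 to 0.29, Aqp1 (1387651_at) from -1.37 to -0.84, Cav1 from 0.88 to 1.48 on 1370131_at and 0.14 to 0.43 on 1372111_at, and Plvap from -0.88 to -0.43. Cav2 was below 0 without cirrhotic array 1 (-0.02) or 3 (-0.06) or control array 1 (-0.28). Genes called lower ranged from 0 to 3 for raft residents, 2 to 4 for clathrin and 0 to 1 for the stomatin family, and genes called higher from 1 to 2 for aquaporins and were 1 throughout for the stomatin family. The causes were not tested.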

Other observations

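Clathrin-coated pits are a major entry route of sinusoidal endothelium. Of 13 tested genes of the clathrin coat and its adaptors, 5 fell, 0 rose and 8 did not pass, with a median difference of -0.19, against 13.2% called lower among all probe sets tested. With 1 array left out 2 to 4 were called lower (2 without control array 3 and 3 without cirrhotic array 1 or control array 1). The replicate block, which rests on the arrays numbered 2 and 3 of each group, left 1. Relative to the mean of the pan-endothelial genes 0 of the 13 were called lower and 12 higher, where 86.4% of all probe sets were called higher. On that scale Dab2 had a difference of 0.01 (limma adjusted p = 0.932). Dab2, an endocytic adaptor, fell by 0.99 (SE 0.13, limma adjusted p = 0.00194), with signals of 2131.5, 2657.8 and 2939.6 in cirrhotic and 5269.7, 4961.0 and 5083.0 in control cells. The clathrin heavy chain gene Cltc fell by 0.53 (SE 0.11, limma adjusted p = 0.0110), the AP2 subunit gene Ap2a2 by 0.58 (SE 0.12, limma adjusted p = 0.0122) and the adaptor Eps15 by 0.55 (SE 0.13, limma adjusted p = 0.0193) on the brighter of its probe sets, while its other probe set had a difference of -0.02 (limma adjusted p = 0.957).

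Of 10 tested genes for proteins described in caveolae or rafts, 4 rose and 3 fell, with a median of 0.04, against 12.3% called higher and 13.2% lower among all probe sets tested. Prnp, the prion protein, rose by 1.86 (SE 0.19, limma adjusted p = 0.000848), the kinase Src by 1.31 (SE 0.16, limma adjusted p = 0.00137) and Cd36, a scavenger receptor for fatty acids, by 1.75 (SE 0.33, limma adjusted p = 0.00755). Nos3, the nitric oxide synthase held by caveolin 1, fell by 0.70 (SE 0.14, limma adjusted p = 0.0111). Relative to the pan-endothelial genes its difference was 0.31 (limma adjusted p = 0.0733), which did not pass. Without control array 3, 0 raft residents were called lower.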
